A study of Mus musculus with 13 samples.

Results

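Protein kinase C and phospholipase C signalling was followed through 9 genes: the conventional kinases Prkca and Prkcb, the calcium-independent kinases Prkcd and Prkce, the atypical kinase Prkcz, the phospholipases Plcb1, Plcb3 and Plcb4, and the calcium release channel Itpr1. Members were all probe sets whose single gene symbol, current or an older alias, was one of these names. This gave 26 of 45037 probe sets, for 8 of the 9 genes among 18161 genes with a single symbol. Itpr1 had no probe set by this rule and was not analysed here. The 13 arrays were of total RNA, each from a single hemisphere of the brain of a male C3HeB/FeJ mouse aged 10 to 12 weeks when feeding began. The 6 creatine mice had free access to pellets with 1% creatine for 6 months, and the 7 untreated mice had pellets of the same calorie content without creatine. No genetic change is named for either group, so the diet is the only labelled difference. The labels call the arrays biological replicates, and each was taken as a separate mouse.

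In this pathway a receptor coupled to the G protein Gq switches on a phospholipase C of the beta class, which splits the membrane lipid PIP2 into the soluble messenger IP3 and the lipid diacylglycerol. IP3 opens receptors on the endoplasmic reticulum and releases calcium, while diacylglycerol holds protein kinase C at the membrane. Conventional kinases need both calcium and diacylglycerol, the calcium-independent ones such as Prkcd and Prkce need diacylglycerol only, and atypical ones need neither. In brain the pathway serves metabotropic glutamate and muscarinic receptors and is known for its part in synaptic plasticity. Its genes are strongly regional: Plcb1 is a phospholipase of cortex and hippocampus, and Plcb4 one of cerebellar Purkinje cells and thalamus.

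Each array gave 1 intensity per probe set on a linear scale, with array medians between 37 and 45. Differences below are log2 of intensity plus 16, creatine minus untreated, with the standard error (SE) and p from limma. Precision is limited by having 13 arrays. Dim below means that the mean of at least 1 group was no higher than the highest array median, 45. Of all probe sets tested, 4 passed an adjusted p under 0.05, which is 0.00888% of those tested. At an unadjusted p under 0.05 the share was 11.9% in either direction, with 4.17% on the higher side and 7.7% on the lower side, and the groups did not overlap in 0.56%.

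Cerebellar markers differed widely between mice and were read first, because several members are regional genes. Of 15 cerebellar markers 14 were measured, and their intensities summed to between 8243 and 19229 in creatine mice and between 3930 and 24389 in untreated mice. None was at 0 in any array. The Purkinje cell gene Pcp2 read 27 in untreated replicate 3 and between 1496 and 2881 in the other untreated mice, and from 736 to 2104 in creatine mice. Gabra6, a receptor subunit of cerebellar granule cells, read 22 in the same mouse. The score of the markers (their mean log2 level) ran from 6.80 in untreated replicate 3 to 10.13 in untreated replicate 2, with creatine replicate 4 next lowest at 8.45. The score did not separate the diets, at 9.36 ± 0.53 (SD, n = 6) in creatine mice and 9.23 ± 1.11 (SD, n = 7) in untreated mice (exact permutation test, 2-sided, p = 0.882, adjusted p = 0.882 over 13 scores).

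Of the scores for other regions, cell types and RNA quality, the oligodendrocyte score differed between the groups. It stood at 10.79 in creatine mice and 10.93 in untreated mice (exact permutation p = 0.00233, adjusted p = 0.0303), with 4 of 5 measured markers lower in creatine mice and summed intensities of 16024 to 18097 against 17450 to 21747. The cortex score was 8.91 against 8.79 (exact permutation p = 0.0705, adjusted p = 0.302), with 11 of 12 measured markers higher and sums of 7833 to 8962 against 6274 to 8553. The cortex markers include Mef2c, Lmo4, Stx1a and Nr4a2, which an earlier account of these data had named. This difference and the count of markers therefore rest in part on genes picked from the same data. A cortex score without those genes was not compared between the groups. The neuron score differed by -0.04 and the astrocyte score by -0.02, with adjusted p of 0.302 and 0.659. All 5 neuronal and all 6 astrocyte markers were measured and none lay below the array medians, which shows brain tissue but not which piece of it. The cerebellar markers of untreated replicate 3 scored 6.80, while the other 6 untreated mice scored 9.24 to 10.13. Whether the piece of tissue differed in that mouse was not tested. In whole tissue, fewer cells of a type and less RNA per cell cannot be told apart.

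Prkca, Plcb1, Prkcb and Plcb4, the members that followed the cerebellar score across mice, are shown by the 250 bases before their transcript starts, read 5′ to 3′ from RefSeq (GRCm38.p6), with both starts that the table lists for Plcb4. Capitals mark matches on either strand, and matches that overlap run together. The search used GGGCGG, the GC box that Sp1 and its relatives bind, and CAGCTG, an E-box that neuronal bHLH factors use. It also used CACGTG, which is the E-box of Myc and USF, and TGACGTCA, the full cyclic AMP response element. The others were GCGTGGGCG, which Egr factors bind, then TATAAA, for the classical core promoter, and finally AGGTCA, the core of ROR sites.
Prkca, chr11:108343889-108344138, minus strand: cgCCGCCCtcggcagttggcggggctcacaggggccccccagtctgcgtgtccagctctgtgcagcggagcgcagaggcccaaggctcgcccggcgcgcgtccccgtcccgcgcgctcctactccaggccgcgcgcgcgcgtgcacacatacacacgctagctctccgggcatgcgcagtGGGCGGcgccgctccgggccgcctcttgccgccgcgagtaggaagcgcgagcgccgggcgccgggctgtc
Plcb1, chr2:134785914-134786163, plus strand: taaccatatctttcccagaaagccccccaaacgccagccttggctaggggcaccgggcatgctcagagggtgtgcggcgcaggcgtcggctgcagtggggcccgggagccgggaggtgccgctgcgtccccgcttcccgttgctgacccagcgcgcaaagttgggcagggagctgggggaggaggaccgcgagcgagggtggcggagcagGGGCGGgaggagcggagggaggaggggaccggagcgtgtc
Prkcb, chr7:122288875-122289124, plus strand: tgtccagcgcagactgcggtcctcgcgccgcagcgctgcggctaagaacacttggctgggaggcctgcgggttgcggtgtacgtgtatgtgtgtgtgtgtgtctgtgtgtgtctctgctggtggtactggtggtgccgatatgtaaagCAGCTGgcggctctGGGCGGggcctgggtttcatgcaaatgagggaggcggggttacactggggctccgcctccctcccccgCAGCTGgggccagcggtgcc
Plcb4 first start, chr2:135659297-135659546, plus strand: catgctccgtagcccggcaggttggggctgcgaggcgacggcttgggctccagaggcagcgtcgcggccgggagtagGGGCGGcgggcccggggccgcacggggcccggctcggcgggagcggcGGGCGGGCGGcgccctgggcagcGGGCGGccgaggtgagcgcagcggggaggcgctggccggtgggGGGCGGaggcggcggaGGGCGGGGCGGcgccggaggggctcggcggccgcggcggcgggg
Plcb4 second start, chr2:135764588-135764837, plus strand: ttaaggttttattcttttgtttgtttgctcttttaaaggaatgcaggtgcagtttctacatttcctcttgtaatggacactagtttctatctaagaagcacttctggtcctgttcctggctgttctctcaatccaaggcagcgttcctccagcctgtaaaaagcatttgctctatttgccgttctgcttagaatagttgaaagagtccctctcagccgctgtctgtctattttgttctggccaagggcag

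The first 4 windows are rich in G and C, as CpG island promoters of brain genes often are. Prkca had 76.8% GC and 39 CpG dinucleotides, Plcb1 71.2% and 22, Prkcb 65.2% and 17, and the first start of Plcb4 85.2% and 42. The median of all 32851 upstream windows was 52.4% and 6. The second start of Plcb4 had 42.8% GC and 3 CpG dinucleotides, and none of the 7 motifs was found in that window. The first start held 7 GC boxes, Prkca 2, and Plcb1 and Prkcb 1 each, while 32.7% of all windows hold at least 1. The Prkcb window held 2 copies of CAGCTG, which 13% of all windows hold. The remaining motifs were in none of these 5 windows; across all windows CACGTG was in 6.02%, TGACGTCA in 1.55%, GCGTGGGCG in 0.536%, TATAAA in 12.4% and AGGTCA in 14%. The files do not place the Plcb4 probe sets on transcripts of either start.

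Creatine-fed and untreated mice were compared to see which transcripts of the pathway differ after creatine feeding. Of the 26 member probe sets 18 had higher means in creatine mice (median log2 difference 0.07), while over all 45037 probe sets 42.2% did (median -0.03). With array medians set equal the counts were 23 of 26 and 56.7%, and after quantile normalization 21 of 26 and 48.8%. No member probe set passed the adjusted threshold, by limma, where 0.00888% of the table did, and none of the 22 members among the brighter 22519 probe sets passed when those were tested alone, where 0.608% did. At an unadjusted p under 0.05 the brighter probe sets tested alone held 4 of these 22 members, against a share of 16.6%. They were of Prkcb, Prkca and Plcb1, with higher means, and Prkcd 1442256_at, with a lower mean (-0.345, limma unadjusted p = 0.043). Among all 26 member probe sets there were 4, or 15.4% of the members against 11.9% of the table. All 4 of these had higher means, a side that held 4.17% of the table. Most members lie among the brighter probe sets, where the share on that side was not counted. There 45.9% of all probe sets and 15 of the 22 members had higher means. The 4 belong to Prkcb, Prkca, Plcb1 and Prkce, and the one of Prkce read 3 to 9 in creatine mice and 0 to 7 in untreated mice. Without untreated replicate 3 their log2 differences were 0.26, 0.44, 0.26 and 0.26. In no member did the 2 groups stay fully apart, as they did in 0.56% of the table.

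**Figure D1:**
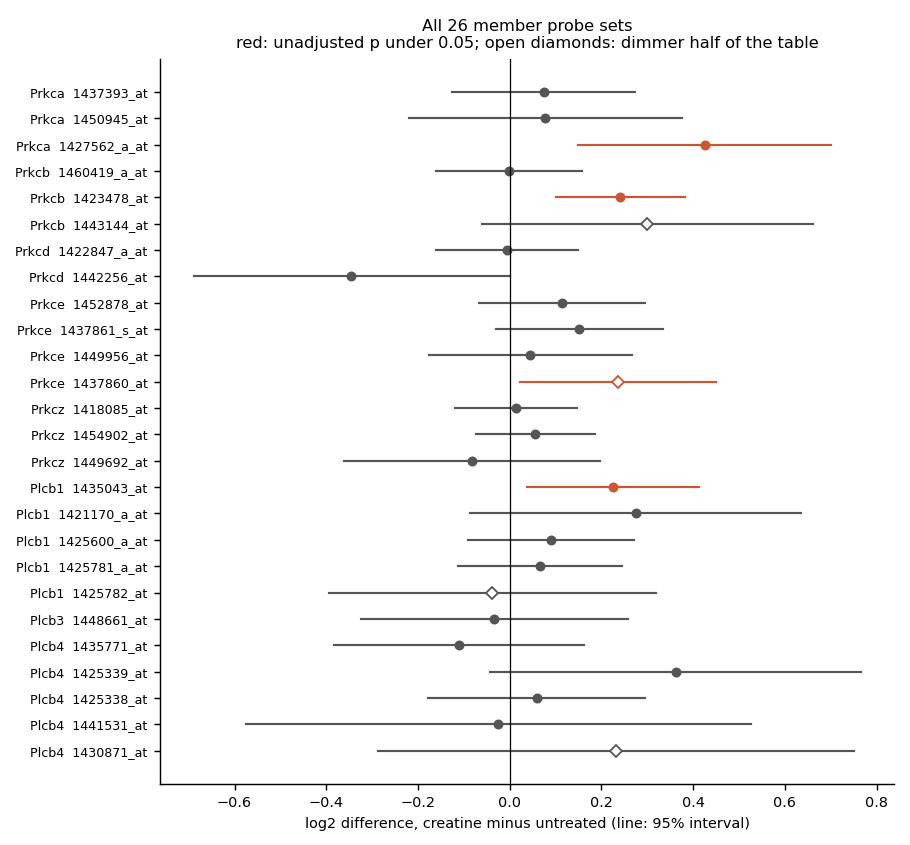
Log2 difference between creatine-fed and untreated mice (horizontal axis) for all 26 member probe sets, grouped by gene, with 95% intervals from limma. The 4 red probe sets, of Prkca, Prkcb, Prkce and Plcb1, have an unadjusted p under 0.05 and none passes after adjustment; open diamonds lie in the dimmer part of the table.

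Plcb1, the phospholipase that couples Gq receptors to PIP2 breakdown in forebrain neurons, had a higher mean in creatine mice at its brightest probe set, 1435043_at, which did not pass after adjustment. Untreated mice read 1042, 1197 and 1392 (lowest, median and highest of 7), and creatine mice 1269, 1382 and 1685 (of 6). Of the creatine mice 3 lay above every untreated mouse and 5 of the 7 untreated mice lay below every creatine mouse, so the groups overlapped in their middle range. The means were 1413 ± 157 (SD, n = 6) and 1207 ± 124 (SD, n = 7), a log2 difference of 0.22 ± 0.09 (SE; limma unadjusted p = 0.022, adjusted p = 0.334). With the oligodendrocyte score as a covariate the difference was 0.17 and with the cortex score 0.11 (adjusted p = 0.804 and 0.687), so the value fell by more than 1.5 times with the cortex markers. The cortex list holds Mef2c, Lmo4, Stx1a and Nr4a2, which an earlier account of these data had named; without those 4 genes the difference was 0.17.

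The other probe sets of Plcb1 stood closer to 0 or varied more. The probe set 1421170_a_at differed by 0.28 ± 0.17 (SE), with creatine mice from 115 to 205 and untreated mice from 83 to 174. At 1425600_a_at and 1425781_a_at the differences were 0.09 and 0.07, and at the dim 1425782_at it was -0.04. The last 2 were designed on the same transcript record, U85714, as the annotation gives it. The suffix _a_at marks probes shared by alternative transcripts of 1 gene.

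Plcb4, the phospholipase of Purkinje cells and thalamic neurons, had 5 probe sets. Of their 10 pairs, 6 went together across mice by Pearson's r and 3 by Spearman's rho after adjustment of the permutation p. At the brightest, 1435771_at, untreated mice read 698, 1019 and 1270 (lowest, median, highest) and creatine mice 743, 958 and 1060. These ranges lay almost on each other, and the log2 difference was -0.11 ± 0.13 (SE; limma adjusted p = 0.786). At 1425339_at untreated mice read 76, 165 and 229 and creatine mice 151, 228 and 242. Here 3 creatine mice lay above every untreated mouse, and the lowest value was that of untreated replicate 3. The log2 difference was 0.36 ± 0.19 (SE; limma unadjusted p = 0.0755, adjusted p = 0.481). Leaving out untreated replicate 3 brought it to 0.21 (adjusted p = 0.558), and the cortex score as a covariate brought it to 0.69 (adjusted p = 0.129). The remaining probe sets 1425338_at, 1441531_at and the dim 1430871_at differed by 0.06, -0.03 and 0.23, none with an unadjusted p under 0.05.

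The gap between the 2 Plcb4 probe sets was then measured within each array, where scaling of the array cancels. This comparison was chosen after the values were seen, and it was made for all 18 pairs of a member gene's brightest probe set with another of its probe sets. The log2 value of 1425339_at minus that of 1435771_at ran from -2.96 to -2.39 in untreated mice and from -2.38 to -1.63 in creatine mice. All 6 creatine mice lay above all 7 untreated mice, although the nearest values, -2.38 and -2.39, almost touched. The means were -2.07 ± 0.26 (SD, n = 6) and -2.54 ± 0.20 (SD, n = 7), so the gap narrowed by a log2 difference of 0.47 (exact permutation test, 2-sided, p = 0.000583, adjusted p = 0.0105 over 18 pairs). That p is the smallest that an exact test of 6 against 7 mice can give. Without untreated replicate 3, the mouse with the low cerebellar markers, the difference was 0.40 (exact permutation adjusted p = 0.039). With the cerebellar score as a covariate it was 0.45 and with the oligodendrocyte score 0.47.

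Prkcb, the conventional kinase that is spliced into the forms beta I and beta II, showed the other such gap. At 1423478_at untreated mice read 1088, 1188 and 1269 (lowest, median, highest) and creatine mice 1257, 1388 and 1521. Of the 6 creatine mice 5 lay above every untreated mouse, and the sixth fell below a single untreated mouse, replicate 3. The means were 1391 ± 106 (SD, n = 6) and 1173 ± 63.6 (SD, n = 7), a log2 difference of 0.24 ± 0.07 (SE; limma unadjusted p = 0.00258, adjusted p = 0.202). With limma's variance trend and robust fit the adjusted p was 0.0441, and over the other settings tried it ran up to 0.614. The difference itself lay between 0.19, with the cortex score as a covariate, and 0.29, with array medians set equal.

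The brightest Prkcb probe set, 1460419_a_at, gave no such gap between the diets. Untreated mice read 3890, 4340 and 4677 and creatine mice 3836, 4377 and 4768, which overlap throughout, and the log2 difference was -0.00 ± 0.07 (SE; limma adjusted p = 0.997; its 95% interval is -0.16 to 0.16). Within arrays, 1423478_at minus 1460419_a_at was -1.63 ± 0.11 (SD, n = 6) in creatine mice and -1.87 ± 0.09 (SD, n = 7) in untreated mice. That is a change of 0.24 (exact permutation test, 2-sided, p = 0.00291, adjusted p = 0.0262 over 18 pairs), with 6 of 6 creatine mice above the untreated mean and 5 above every untreated mouse. The adjusted p rose past the threshold, to between 0.0584 and 0.0682, without creatine replicate 1 or without untreated replicate 1, 3, 5, 6 or 7. The third probe set, 1443144_at, was dim, from 26 to 55 in creatine mice and from 16 to 51 in untreated mice, and differed by 0.30 ± 0.17 (SE; limma adjusted p = 0.518).

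**Figure D2:**
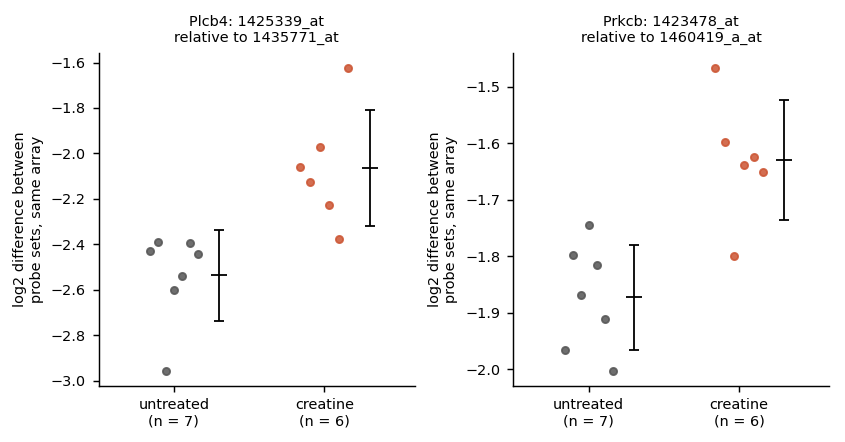
Log2 level of 1 probe set relative to the brightest probe set of the same gene, within each array, for Plcb4 (left) and Prkcb (right); points are mice and the bars give mean ± SD. For Plcb4 all 6 creatine mice, from -2.38 to -1.63, lie above all 7 untreated mice; for Prkcb 5 of 6 do.

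None of the other 16 pairs passed by this test. How many same-gene pairs over the whole array would pass was not computed, so the Plcb4 and Prkcb gaps cannot be set against such a share. The nearest were Prkca 1427562_a_at against 1437393_at, with a change of 0.35 (exact permutation p = 0.0187, adjusted p = 0.112), and Plcb1 1425781_a_at against 1435043_at, with a change of -0.16 (p = 0.0315, adjusted p = 0.142 by the same exact permutation test).

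Prkca, the other conventional kinase and the one most studied in long-term depression at Purkinje cell synapses, had its widest difference at a dim probe set. At 1427562_a_at untreated mice read 28, 39 and 46 (lowest, median, highest) and creatine mice 39, 60 and 69. Creatine replicates 3, 4, 5 and 6 lay above every untreated mouse, while replicates 1 and 2 both read 39, inside the untreated range. The means were 55.5 ± 13.5 (SD, n = 6) and 36.9 ± 7.24 (SD, n = 7), a log2 difference of 0.42 ± 0.13 (SE; limma unadjusted p = 0.00529, adjusted p = 0.237). The level is close to the array medians, and the difference moved from 0.28 to 0.56 as the offset added before log2 went from 50 to 1. With the cortex score as a covariate it was 0.28 (adjusted p = 0.469).

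The brighter Prkca probe sets differed little between the diets. At 1437393_at untreated mice read 639, 748 and 961 and creatine mice 707, 801 and 881, so the creatine values lay inside the untreated range, with a log2 difference of 0.07 ± 0.09 (SE; limma adjusted p = 0.804). At 1450945_at the difference was 0.08 ± 0.14 (SE). These 2 probe sets rose and fell together across mice (Pearson's r 0.78, permutation p adjusted over 36 probe set pairs 0.00504; Spearman's rho 0.77, adjusted p = 0.0305; r 0.83 without the 2 farthest mice). For 1437393_at and 1427562_a_at r was 0.51 (permutation adjusted p = 0.133) and rho 0.46 (adjusted p = 0.213), and for 1450945_at and 1427562_a_at r was 0.74 (adjusted p = 0.0532) and rho 0.71 (adjusted p = 0.0623).

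Prkcd, a calcium-independent kinase best known in brain as a marker of thalamic relay and central amygdala neurons, was flat at its brightest probe set. At 1422847_a_at untreated mice read 336, 389 and 415 and creatine mice 334, 379 and 425, which cover the same range, with a log2 difference of -0.01 ± 0.07 (SE; limma adjusted p = 0.986; 95% interval -0.16 to 0.15). The dim 1442256_at read 47, 53 and 72 in untreated mice and 25, 39 and 79 in creatine mice. All creatine mice except replicate 4 lay below every untreated mouse, and replicate 4 lay above them all. The log2 difference was -0.34 ± 0.16 (SE; limma unadjusted p = 0.0501, adjusted p = 0.421), and without creatine replicate 4 it was -0.49 (unadjusted p = 0.00109).

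Prkce, the other calcium-independent kinase and one enriched in axons and presynaptic endings, had higher means at all 4 of its probe sets. At 1452878_at untreated mice read 1234, 1519 and 1725 and creatine mice 1477, 1614 and 1829 (log2 difference 0.11 ± 0.09, SE). At 1437861_s_at untreated mice read 1292, 1408 and 1661 and creatine mice 1427, 1649 and 1820 (0.15 ± 0.09, SE; limma unadjusted p = 0.094, adjusted p = 0.513). At both, the middle of the creatine range lay above that of the untreated mice while the ranges overlapped. The difference at 1449956_at was 0.05 ± 0.10 (SE), and creatine replicate 6 read the highest of all mice there, 1089. The probe set 1437860_at reached an unadjusted p of 0.0325 (limma adjusted p = 0.374) at intensities of 3 to 9 in creatine mice and 0 to 7 in untreated mice. That is far under the array medians, where the offset sets the size of the difference (0.24, or 1.25 with an offset of 1 and 0.09 with 50). Probe sets 1437860_at and 1437861_s_at were designed on the same record, BB335101, and the suffix _s_at marks probes that can match transcripts of more than 1 gene.

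Prkcz, the atypical kinase whose brain transcript from an internal start encodes the free catalytic form PKMzeta, had the lowest coefficients of variation in both groups among the brightest probe sets of the 8 genes. At 1418085_at untreated mice read 801, 894 and 950 and creatine mice 840, 885 and 966, with coefficients of variation of 6.22% and 4.91%. The log2 difference was 0.01 ± 0.06 (SE; limma adjusted p = 0.964; 95% interval -0.12 to 0.15). At 1454902_at it was 0.06 ± 0.06 (SE) and at 1449692_at -0.08 ± 0.13 (SE). Plcb3, a widely expressed phospholipase found with Plcb4 in complementary bands of Purkinje cells, had 1 probe set, 1448661_at, at the level of the array medians. Untreated mice read 28, 44 and 64 and creatine mice 31, 41 and 53 (log2 difference -0.03 ± 0.14, SE; limma adjusted p = 0.957), which is too dim and too variable to show a small difference.

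**Figure D3:**
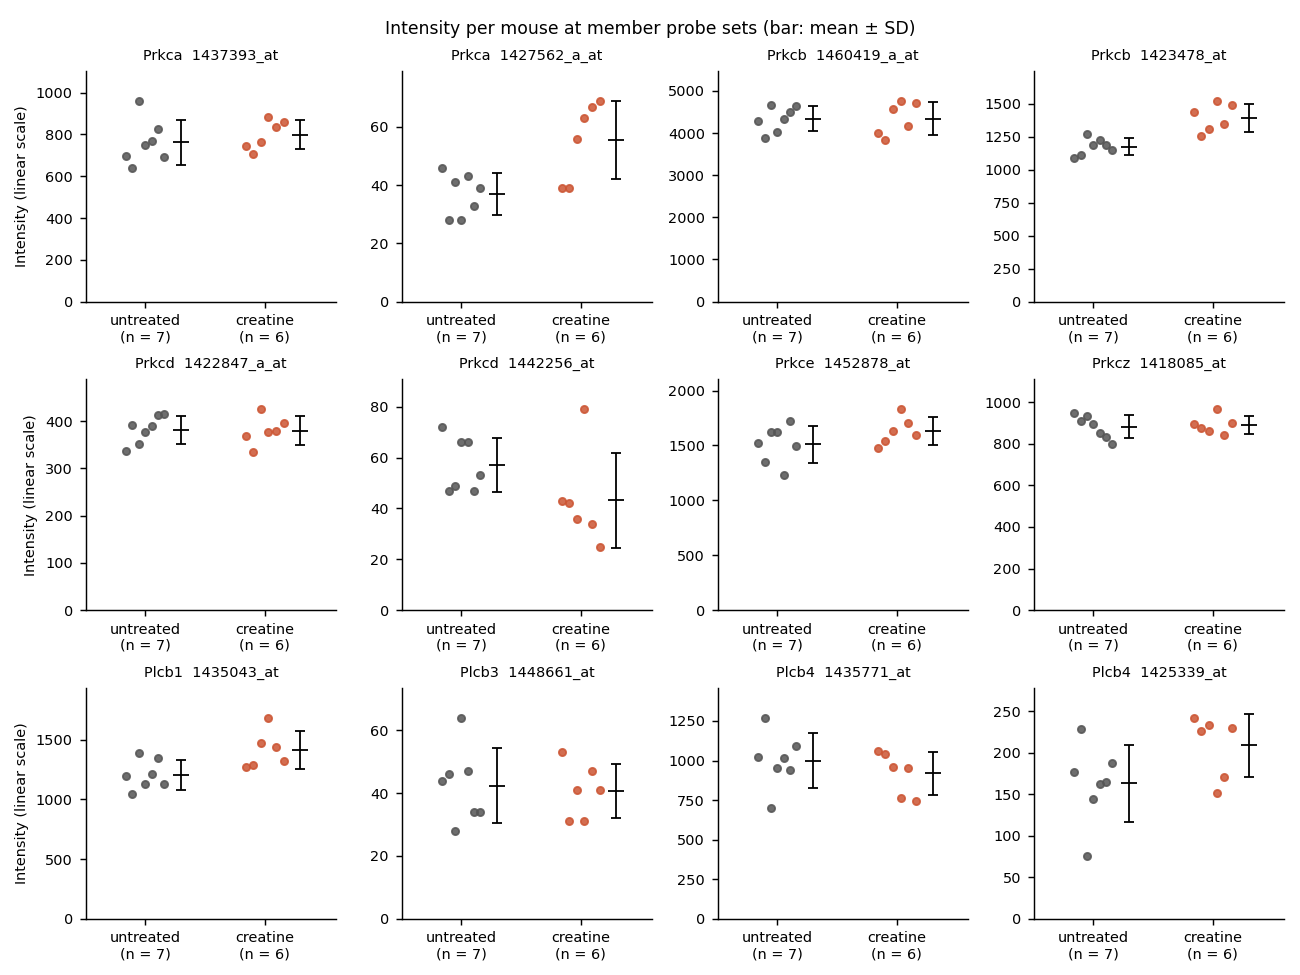
Intensity on a linear scale (vertical axis, from 0) in each of 7 untreated and 6 creatine-fed mice at 12 member probe sets, with mean ± SD beside the points. Prkcb 1423478_at separates the diets best, with 5 of 6 creatine mice above every untreated mouse, while Prkcb 1460419_a_at, Prkcd 1422847_a_at and Prkcz 1418085_at overlap throughout.

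Apart from the diets, 4 of the 8 genes varied across mice with the cerebellar marker score. How many of all genes on the array did so was not counted, so this is not read as particular to these genes. Deviations from the group means were correlated over the 13 mice, each member at its brightest probe set, with 5 region scores (40 relations, permutation within groups, adjusted over the 40). Plcb4 went with the cerebellar score (Pearson's r 0.89, permutation p = 0.00019, adjusted p = 0.0038; Spearman's rho 0.80, adjusted p = 0.0169; r 0.88 without the 2 mice farthest from the median score). Within the 6 creatine mice r was 0.89 and within the 7 untreated mice 0.93.

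Prkca at its brightest probe set went against the cerebellar score almost without exception. Its r was -0.90 (permutation p = 1e-05, the smallest that 100000 resamples can give, adjusted p = 0.0004), rho was -0.96 (adjusted p = 0.0004), and r was -0.91 without the 2 farthest mice, -0.88 within creatine mice and -0.91 within untreated mice. Untreated replicate 3, with hardly any Pcp2, had the highest Prkca of all mice at 961 and the lowest Plcb4 at 698. Untreated replicate 2, with the most Pcp2, had the lowest Prkca at 639 and the highest Plcb4 at 1270.

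Plcb1 and Prkcb, at their brightest probe sets, also went against the cerebellar score. For Plcb1 r was -0.73 (permutation p = 0.00071, adjusted p = 0.0071), rho -0.70 (adjusted p = 0.0433) and r -0.54 without the 2 farthest mice. For Prkcb r was -0.60 (permutation p = 0.0127, adjusted p = 0.046), rho -0.68 (adjusted p = 0.0433) and r -0.63 without the 2 farthest mice. With the striatum score Prkcb had r 0.73 and rho 0.78 (permutation adjusted p = 0.0419 and 0.0433; r 0.68 without the 2 farthest mice), and with the cortex score Plcb4 had r -0.90 and rho -0.89 (adjusted p = 0.0071 and 0.0042; r -0.79). All 12 relations that passed by r were of these 4 genes. Prkcd, Prkce, Prkcz and Plcb3 had no relation past the threshold with any region score, and the r of Plcb3 with the cerebellar score dropped from 0.58 to 0.15 without the 2 farthest mice. All arrays were scaled to 1 mean, so each level is relative to the rest of its array.

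**Figure D4:**
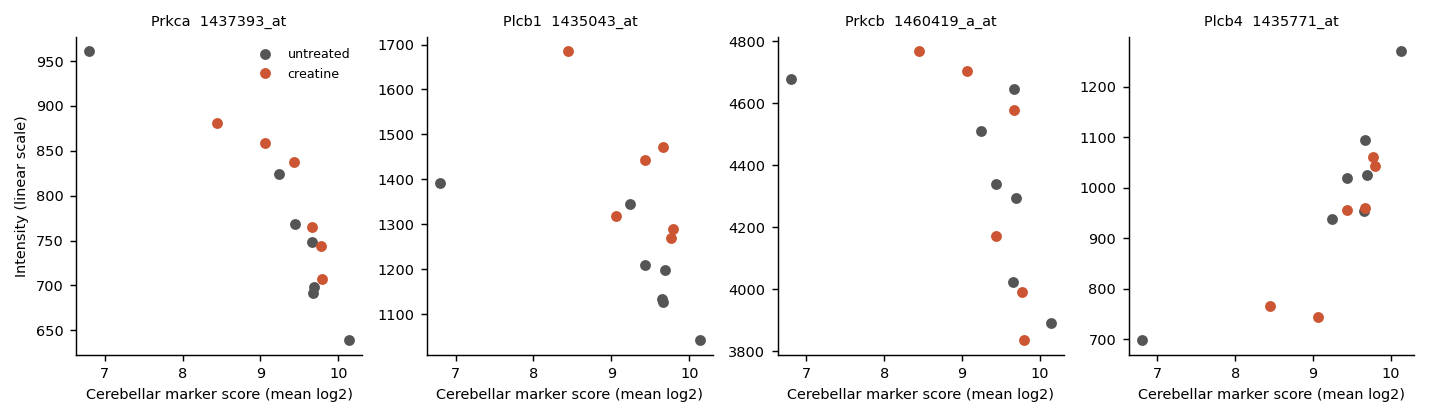
Intensity on a linear scale (vertical axes, not from 0) against the cerebellar marker score, the mean log2 level of 14 marker genes, for 13 mice. Prkca, Plcb1 and Prkcb fall and Plcb4 climbs as the score goes from 6.80 in untreated replicate 3 to 10.13 in untreated replicate 2.

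Members were also set against each other across mice. Of 28 pairs at the brightest probe sets, 2 passed the permutation test after adjustment. Prkca and Plcb4 were opposed (r -0.93, adjusted p = 0.00168; rho -0.89, adjusted p = 0.00448; r -0.83 without the 2 farthest mice), and Prkca and Plcb1 went together (r 0.80, adjusted p = 0.0239; rho 0.79, adjusted p = 0.0423; r 0.68 without them). Of the other Plcb4 probe sets 3 of 4 passed by r with the cerebellar score: r was 0.91 for 1425339_at, 0.81 for 1441531_at and 0.79 for 1425338_at (adjusted permutation p over 26 probe sets 0.00936, 0.00013 and 0.0208). Without the 2 farthest mice r was 0.54, 0.84 and 0.15, so the relation of 1425338_at rests on them, and its rho of 0.63 did not pass (adjusted p = 0.0594). The fourth, the dim 1430871_at, had r 0.41 (adjusted permutation p = 0.26) and rho 0.55 (adjusted p = 0.107). The dim Prkcb 1443144_at went the other way from its brighter partners, with r 0.75 (adjusted permutation p = 0.00936; rho 0.74, adjusted p = 0.0157; r 0.42 without the 2 farthest mice). Among the other Plcb1 probe sets only 1425781_a_at passed by r (-0.60, adjusted permutation p = 0.0208). For 1421170_a_at, 1425600_a_at and 1425782_at r was -0.50, 0.001 and -0.45, though 1421170_a_at passed by rho (-0.75, adjusted permutation p = 0.0157). Prkca 1450945_at passed by r (-0.53, adjusted permutation p = 0.0461), and 1427562_a_at did not (-0.40, adjusted p = 0.204). Taking the cerebellar score as a covariate narrowed the errors more than it moved the differences: Plcb4 1425339_at went from 0.36 to 0.31 (limma unadjusted p = 0.00504, adjusted p = 0.21) and Plcb1 1435043_at from 0.22 to 0.24 (unadjusted p = 0.00464, adjusted p = 0.205).

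The genes whose pattern over the 13 mice was most like that of each member were ranked by Pearson's r of deviations from the group means, among 11141 genes in the brighter part of the table, as a description with no test. For Prkca they were Camkv (0.95), Dpp10 (0.94) and Sox4 (0.93). For Plcb1 they were Crip2, Cacna2d1 and Pde2a (all 0.96), and for Prkcb Ppp1r2 (0.93), Kif5a (0.92) and Reep5 (0.91). For Plcb4 they were Ank1 (0.97), Aqp6 and Washc2 (both 0.96). The leading genes were Erc1 for Prkcd (0.88), Ccdc127 for Prkce (0.93), Adi1 for Prkcz (0.91) and Ccnjl for Plcb3 (0.84).

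The rest of the pathway was read from a list of 114 genes, of which 103 had a probe set, each taken at its brightest. None passed the adjusted threshold by limma, where 0.00551% of all genes at their brightest probe sets did. At an unadjusted p under 0.05 there were 10, or 9.71%, against 11.2% of all 18161 genes, with 3 higher and 7 lower in creatine mice. The share is close to that of the table. Means were higher in 56 and lower in 47, with a median of 0.01, while 41.5% of all genes at their brightest probe sets had higher means. The counts by group below are to be read against that share.

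Upstream of the phospholipases, 21 of 26 listed Gq-coupled receptors were measured and 14 had higher means (median 0.06). F2r, the thrombin receptor, was lowest by p at 142 ± 29.7 against 172 ± 20.1 (log2 difference -0.27, limma adjusted p = 0.399). The cholecystokinin receptor Cckbr differed by 0.22 and the adrenergic receptor Adra1b by 0.28 (adjusted p = 0.422 and 0.476). Gnaq and Gna11, the Gq proteins of brain, read 1132 ± 105 against 1069 ± 39.9 and 769 ± 44.0 against 821 ± 79.2, with differences of 0.08 and -0.09, and Gna14 was dim.

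Among 6 RGS proteins, which speed the shut-off of G proteins, Rgs7 had the smallest p of the whole list at the brightest probe sets. It read 799 ± 87.3 (SD, n = 6) against 665 ± 24.4 (SD, n = 7), with 5 of 6 creatine mice above every untreated mouse (log2 difference 0.25 ± 0.07, SE; limma unadjusted p = 0.00355, adjusted p = 0.215). Rgs7 acts on Gi and Go rather than on Gq. Rgs3 read 221 against 260 (-0.22, adjusted p = 0.29) and Rgs2 745 against 687 (0.12, adjusted p = 0.555).

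Of 13 other phospholipase C genes, 10 had lower means in creatine mice (median -0.05), and 4 had an unadjusted p under 0.05. Plcg1, the form activated by receptor tyrosine kinases, read 292 ± 39.6 against 343 ± 28.7 (-0.23, limma adjusted p = 0.332). Of its 3 probe sets 1 had a higher mean in creatine mice, and the mean over the probe sets differed by -0.07 (limma adjusted p = 0.71). Plch1 differed by -0.19 and Plcb2, the form of blood cells, by -0.43 at the level of the array medians (adjusted p = 0.341 and 0.353). Plcd3, which was chosen by its p after the values were seen, differed by 0.21.

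Downstream, 19 genes of IP3 turnover and store calcium had a median of -0.01 at their brightest probe sets, none with an unadjusted p under 0.05. Counting all probe sets of each gene, 2 of 6 for Itpr2, 1 of 2 for Ryr1, 1 of 2 for Ryr2 and 1 of 3 for Ahcyl2 lay under that p. The remaining genes of the group had none, and the share of the whole table was 11.9%. Impa1, the lithium-sensitive inositol phosphatase, differed by 0.12, Itpka, the IP3 kinase of dendritic spines, by 0.15, and Itpr2, the IP3 receptor of glia, by -0.23 (limma adjusted p from 0.476 to 0.501). Of 15 diacylglycerol kinases and lipid supply enzymes 11 had higher means (median 0.07). Dgka differed by -0.23, Cds1, which makes the precursor of phosphatidylinositol, by 0.12, and Dgkd by -0.14 (adjusted p from 0.374 to 0.528). An unadjusted p under 0.05 was reached by 1 probe set each of Dgka, Cds1, Pip5k1c and Dgkh. That of Pip5k1c differed by 0.48 and that of Dgkh by 0.31 (limma adjusted p = 0.17 and 0.13), without group overlap. At their brightest probe sets the differences were 0.07 and 0.01, and both genes were chosen after the values were seen. The mean over the probe sets differed by 0.28 for Pip5k1c, 0.14 for Dgkh and 0.003 for Dgkd.

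Among 8 other kinases of the PKC, PKD and PKN families the median was -0.03. Pkn3 was dim at 5 ± 2.19 against 13.9 ± 7.34 (-0.48, limma adjusted p = 0.225), and Prkcq and Prkch differed by -0.15 and -0.12. Of 17 PKC substrates and anchors 12 had higher means (median 0.06). Akap5, the scaffold that holds PKC and protein kinase A at synapses, read 242 ± 12.0 against 213 ± 23.5 (0.18, adjusted p = 0.383), Rasgrp1, a diacylglycerol-dependent Ras activator, differed by 0.18, and the actin-capping adducin Add1 by 0.10. The classical PKC substrates Marcks, Gap43 and Nrgn differed by 0.01, 0.08 and 0.10 (adjusted p = 0.962, 0.699 and 0.778); these 3 were named for their role, after the values were seen.

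**Figure D5:**
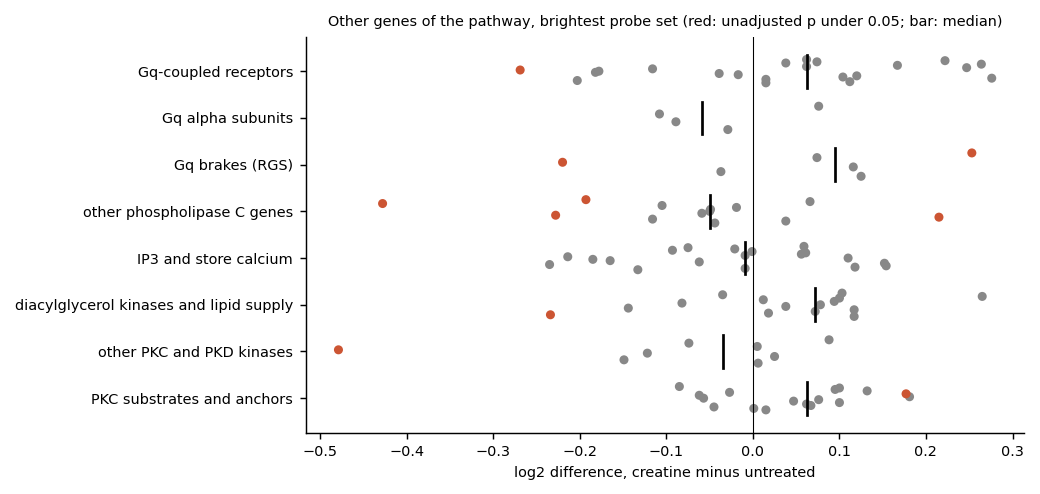
Log2 difference between creatine-fed and untreated mice (horizontal axis) for 103 other genes of the pathway at their brightest probe sets, in 8 groups by role; vertical bars are group medians. Red points are the 10 genes with an unadjusted p under 0.05, 7 of them on the lower side, and none passes after adjustment.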

How the data were processed

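Expression arrays were run on brain hemispheres of 6 creatine-fed and 7 untreated mice, with biotin-labelled cRNA made from 3 µg of total RNA per the labels. The authors deposited 1 linear intensity per probe set and array, in whole numbers with zeros, for 45101 probe sets. The submitters' processing notes name RMA only, which returns log2 values, so these values contradict it. On every array the mean without the top and bottom 2% was 150.05, the form of a global scaling to one target; the tool is not given in the sources used here.

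The 64 control probe sets were set aside. An offset of 16 was added, log2 taken, and limma 3.58.1 (lmFit and eBayes, R 4.3.3) fitted to all 45037 other probe sets without covariates or a filter, 2-sided, with Benjamini-Hochberg adjustment and a threshold of 0.05. Symbols came from the platform's probe table, updated through the Entrez ID; 34945 probe sets had 1 symbol, 932 several and 9160 none listed. A gene's brightest probe set has the highest mean over 13 arrays; it stood for each pathway and marker gene. Permutation tests were exact, or 100000 resamples within groups for correlations. Genes named are all members, per pathway group up to 3 with the smallest unadjusted p, the leading like-patterned genes, and those marked as chosen after their values were seen.

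The members, lists and tests were chosen with earlier results of these data known. Alternatives were the 22519 brighter probe sets, offsets of 1 and 50, 2 other scalings, other variance models, a replicate block, covariates, gene means and leaving out each mouse; 2 covariates and the probe set pairs were added after seeing the data. The limma procedure was tested on simulated data. Figures were drawn with matplotlib 3.10.9.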

Additional observations from a re-analysis of the deposited data

Results flagged for a closer look

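In 52 groups tested, 1 group for each diet at each member probe set, 2 readings stood apart from their own group. Chance gives about 1 in 20 groups, and this count does not exceed that rate. Both readings are of 1 mouse, creatine replicate 4. At Prkcz 1449692_at it read 34, with the next creatine mouse at 55 (gap over range 0.727, critical value 0.625). At Plcb4 1425338_at it read 135, with the next at 181 (0.674). Creatine replicate 4 had the lowest cerebellar marker score of its group, 8.45; the part of that score in these readings was not tested.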

How the results depend on the processing

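Under 28 alternatives, 13 of them leaving out a mouse, 0 of 26 member probe sets passed except with trend and robust, where 1 did, Prkcb 1423478_at; pathway genes passed in none, nor did member genes by the mean over their probe sets. The count over the whole table was 137 in the brighter 22519 probe sets, 161 with trend and robust, 36 with an offset of 50, 13 with array weights, 2 with quantile normalization or the striatum score, 0 with an offset of 1, the replicate block or the thalamus, cortex, reduced cortex or oligodendrocyte score, and 0 to 6 without single mice. Members at an unadjusted p under 0.05 numbered 7 with the reduced cortex score, 2 with the oligodendrocyte score and 3 to 6 without single mice. The replicate number does not pair the mice: deviations of same-numbered mice correlated over 0.1 in 1 of 6 pairs (0.146 for number 2, and from -0.055 to 0.078 in the others), and the block changed no member call.

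Some differences turned sign in some settings, most of them near 0 in the main fit, and none was called. In the main fit Plcb4 1435771_at was the widest of these, at -0.11. Plcb4 1441531_at moved farthest, from -0.03 to 0.421 with the cortex score. The cause was not tested. With array medians set equal Prkcb 1460419_a_at was 0.05, Prkcd 1422847_a_at 0.045, Plcb1 1425782_at 0.014, Plcb3 0.018 and Plcb4 1441531_at 0.027. After quantile normalization Prkcb 1460419_a_at was 0.041, Prkcz 1418085_at -0.012, Plcb1 1425782_at 0.015, Plcb3 0.019 and Plcb4 1441531_at 0.002. With the replicate block Prkcb 1460419_a_at was 0.015, Prkcd 1422847_a_at 0.013, Prkcz 1418085_at -0.009, Plcb1 1425782_at 0.01 and Plcb4 1441531_at 0.007. With the cortex score Prkca 1437393_at was -0.068 and 1450945_at -0.093, Prkcd 1422847_a_at 0.014, Prkce 1449956_at -0.072, Prkcz 1418085_at -0.015, Plcb1 1425781_a_at -0.011, Plcb3 0.046, Plcb4 1435771_at 0.124 and 1441531_at 0.421. With the reduced cortex score Prkcd 1422847_a_at was 0.001, Prkce 1449956_at -0.007, Plcb3 0.008 and Plcb4 1441531_at 0.182. With the oligodendrocyte score Prkca 1450945_at was -0.068, Prkcb 1460419_a_at 0.004, Prkcd 1422847_a_at 0.01, Prkce 1449956_at -0.144, Prkcz 1418085_at -0.054, Plcb1 1425782_at 0.059, Plcb4 1435771_at 0.02 and 1441531_at 0.112. With the thalamus score Prkcd 1422847_a_at was 0.025, Prkcz 1418085_at -0.015 and Plcb3 0.03; with the cerebellar score Prkcb 1460419_a_at was 0.009; with the striatum score Plcb4 1441531_at was 0.09, and with array weights 0.036.

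Leaving out single mice gave Plcb1 1425782_at from -0.156 to 0.062, Plcb3 from -0.098 to 0.046, Plcb4 1425338_at from -0.006 to 0.135, Plcb4 1441531_at from -0.159 to 0.119, Prkcb 1460419_a_at from -0.029 to 0.033, Prkcd 1422847_a_at from -0.038 to 0.028, Prkce 1449956_at from -0.024 to 0.11, Prkcz 1418085_at from -0.01 to 0.031 and Prkcz 1449692_at from -0.149 to 0.019. The Plcb4 gap between probe sets stayed between 0.38 and 0.53 and past the threshold without each mouse and with offsets of 1 and 50. The Prkcb gap ran from 0.21 to 0.28 over the same settings and was 0.18 after quantile normalization, where it had no test. Intensities under every array median limit what Prkce 1437860_at and Plcb4 1430871_at can show.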
